A study of Mus musculus with 6 samples.

Results

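The 10 genes described here are Slc2a1, which encodes the glucose transporter GLUT1, and 9 further targets of the hypoxia-inducible factors: Hk2, Pdk1, Vegfa, Bnip3, Ndrg1, Ero1a, Egln3, P4ha1 and Adm. They were chosen by name, as all probe sets that the platform annotation assigns to exactly 1 of these genes, which gave 25 of the 45037 non-control probe sets and 10 of the 18193 genes named. RNA came from the mouse line C2C12, proliferating precursors of skeletal muscle (myoblasts), carrying a construct for integrin alpha7, a laminin receptor subunit of muscle, that tetracycline switches on. The arrays labelled induced (3) came from cells given 1 µg/ml tetracycline for 36 h, and the noninduced arrays (3) from cells kept for 36 h without it. All cells carried the construct and stayed undifferentiated at 37 °C in DMEM with 2 mM glutamine, 20% fetal bovine serum, chick embryo extract at 0.5%, kanamycin, streptomycin and penicillin. The labels name no promoter and no clone for the construct. Tetracycline went with the label in every sample, so the drug and the construct cannot be told apart.

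Hypoxia-inducible factors are transcription factors made of an oxygen-regulated alpha subunit and the constant partner ARNT. With oxygen present, prolyl hydroxylases of the EGLN family mark the alpha subunit for destruction through the VHL ubiquitin ligase; without it, the dimer binds hypoxia response elements and raises genes of glucose uptake, glycolysis, vessel growth and mitochondrial turnover. Several of these genes also answer to growth factors and nutrient stress, and in myoblasts GLUT1 serves basal, insulin-independent glucose uptake.

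The core of the hypoxia response element was looked for in the 250 bases before the transcription start in RefSeq's promoter table (build GRCm38.p6), as ACGTG or GCGTG on either strand. The table held 9 of the 10 genes in 11 windows, with no entry for Ndrg1. A core was present in 9 of the 11 windows and in at least 1 window of each of the 9 genes, against 38.6% of all 32851 windows and 56.6% of the 11230 windows of genes tested on these arrays. These shares count windows, not genes, and were not matched for base content, although each core holds the pair CG. The member windows ran from 38.4% G and C with 2 CG pairs (a Pdk1 window without a core) to 80.8% with 41 (Ero1a). The stretches from the outermost cores, with up to 12 bases on each side within the window, are shown for 4 genes whose probe sets were higher on the arrays labelled induced and for 2 whose groups overlapped, so that both kinds can be read side by side. The P4ha1 stretch is cut at the end of its window. Each is written 5′ to 3′ on the strand of its gene, with the cores in capitals; a core on the opposite strand reads CACGT or CACGC.
Slc2a1, chr4:119108672-119108725, plus strand: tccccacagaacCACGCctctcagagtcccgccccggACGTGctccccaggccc
Pdk1, chr2:71873134-71873162, plus strand: ccgcctacatggGCGTGtctttaaccagg
Bnip3, chr7:138909525-138909635, minus strand: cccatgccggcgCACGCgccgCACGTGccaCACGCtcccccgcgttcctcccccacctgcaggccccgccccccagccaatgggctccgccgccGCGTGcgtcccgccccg
Ero1a, chr14:45318619-45318712, minus strand: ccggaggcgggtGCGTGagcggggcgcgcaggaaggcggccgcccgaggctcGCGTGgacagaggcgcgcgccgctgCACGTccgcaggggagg
Egln3, chr12:54204087-54204115, minus strand: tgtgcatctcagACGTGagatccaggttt
P4ha1, chr10:59323121-59323295, plus strand: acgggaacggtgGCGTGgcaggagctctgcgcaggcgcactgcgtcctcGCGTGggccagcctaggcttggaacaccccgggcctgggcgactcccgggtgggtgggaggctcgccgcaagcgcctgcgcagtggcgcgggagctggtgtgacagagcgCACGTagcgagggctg

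Slc2a1 had 1 core 36 to 32 bases before its start and another 61 to 57 bases before it. The Bnip3 window held 5 matches, of which 2 are the overlapping strands of a single CACGTG, and the P4ha1 and Ero1a windows held 3 each. Of the 2 Vegfa windows 1 held none and the other 2, and of the 2 Pdk1 windows 1 held a single core and the other none. The motif of the ATF4 and C/EBP stress factors, TGATGNAA on either strand, was in none of the 11 windows, against 3.45% of all windows and 1.86% of those of tested genes. These matches are letters only, and binding was not measured.

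Signals are linear and were scaled by the authors to a trimmed mean of 150.0 on every array, so each value is relative to its whole array. Fold changes are on log2(signal + 16), and 22 of the 25 probe sets, from 9 of the 10 genes, passed the filter on dim signal (a mean above 23.4) and were tested with limma across 22518 probe sets. The array medians lay between 22.9 and 24.9 for the arrays labelled induced and between 24.99 and 27.7 for the noninduced ones. The target of the construct did not follow its label: Itga7 (probe set 1418393_a_at) had 675, 727 and 676 on the arrays labelled induced, against 811, 778 and 786 on the noninduced arrays, a log2 difference of -0.19 (SE 0.058, limma adjusted p = 0.181). All directions below therefore rest on the labels; whether this probe set can see the construct is not given in the sources used here. The cells carried myoblast markers throughout, with a summed signal of 6 markers (Myod1, Myf5, Des, Cdh15, Chrna1 and Itga7) of 6206 to 6488 on the arrays labelled induced and 6666 to 6759 on the noninduced ones. The sums of the other marker lists were 269.8 to 356 and 357 to 439 for 7 myotube markers, 87.4 to 123 and 75.7 to 84.9 for 4 fibroblast markers, 50.4 to 60.5 and 52.1 to 71.9 for 5 endothelial markers, 7.68 to 13.5 and 15.2 to 34.2 for 3 adipocyte markers and 127 to 150.2 and 144 to 183 for 5 macrophage markers, with the arrays labelled induced first in each pair. Markers above the filter were 1 of 7 myotube, 1 of 4 fibroblast, 1 of 5 endothelial, 0 of 3 adipocyte and 3 of 5 macrophage ones. Over the 6 arrays the brightest myotube marker was Actn3 (mean 281), the brightest macrophage marker Csf1r (70.9) and the brightest endothelial marker Kdr (25.0). Pecam1, Tie1, Adipoq, Ptprc and Myh1 were all below a mean of 10 in both groups. The fibroblast marker Pdgfra averaged 80.6 on the arrays labelled induced and 49.3 on the noninduced ones with its brightest probe set. With the other tested Pdgfra probe set the averages were 34.0 and 39.6. The fibroblast markers Dpt and Pi16 averaged 3.73 and 1.41 on the arrays labelled induced and 9.65 and 5.37 on the noninduced ones. The part of these shifts in the results was not tested. By the reuse of module numbers in the instrument records, noninduced replicates 1 to 3 and induced replicate 1 fell in the first fluidics run. Induced replicates 2 and 3 fell in the second. All noninduced scans preceded all scans labelled induced, so scan order and label cannot be told apart. The ratio of 3′ to 5′ signal, a measure of RNA integrity, was 0.761 to 0.782 for Gapdh on the arrays labelled induced and 0.788 to 0.802 on the noninduced arrays, and 1.117 to 1.143 and 1.0999 to 1.108 for Actb, with no overlap; its part in the results was not tested. In RNA of whole cultures, fewer cells expressing a gene and less RNA per cell cannot be told apart.

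Slc2a1, Ndrg1 and Ero1a rose on the arrays labelled induced, by 1.31-fold to 1.44-fold with the 4 probe sets that passed, and no member fell. Hk2, Pdk1, Vegfa and Bnip3 had log2 differences of 0.31 to 0.38 with their brightest probe sets and did not pass, while Egln3 and P4ha1 were at 0.08 and -0.01, and Adm was too dim to test. In counts, 4 of the 22 tested member probe sets were called higher (limma, adjusted p under 0.05) and 0 lower, against 0.120% of all tested probe sets called higher and 0.0799% called lower. At an unadjusted p under 0.05, 19 of the 22 were higher and 0 lower, against 7.43% of all tested probe sets higher and 7.26% lower. All 3 arrays labelled induced lay above all 3 noninduced arrays in 18 of the 22, against 9.65% of all tested probe sets, and below them in 0, against 10.6%. Over the 9 tested genes the median log2 difference was 0.38, against -0.01 over all tested probe sets. Since the genes were picked with earlier results of these arrays known, these shares describe the members and do not test them. The 4 calls were lost without induced replicate 1, induced replicate 2, noninduced replicate 2 or noninduced replicate 3 (0 calls each), and 3 remained without induced replicate 3 or noninduced replicate 1. They were also lost with the fluidics run as a block (0 calls), a fit in which only the first run informs the difference. They became 13 with median centring of the arrays, a scaling under which the median of all tested probe sets was 0.08 in place of -0.01, and 294 probe sets were called higher and 12 lower in place of 27 and 18.

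**Figure D1:**
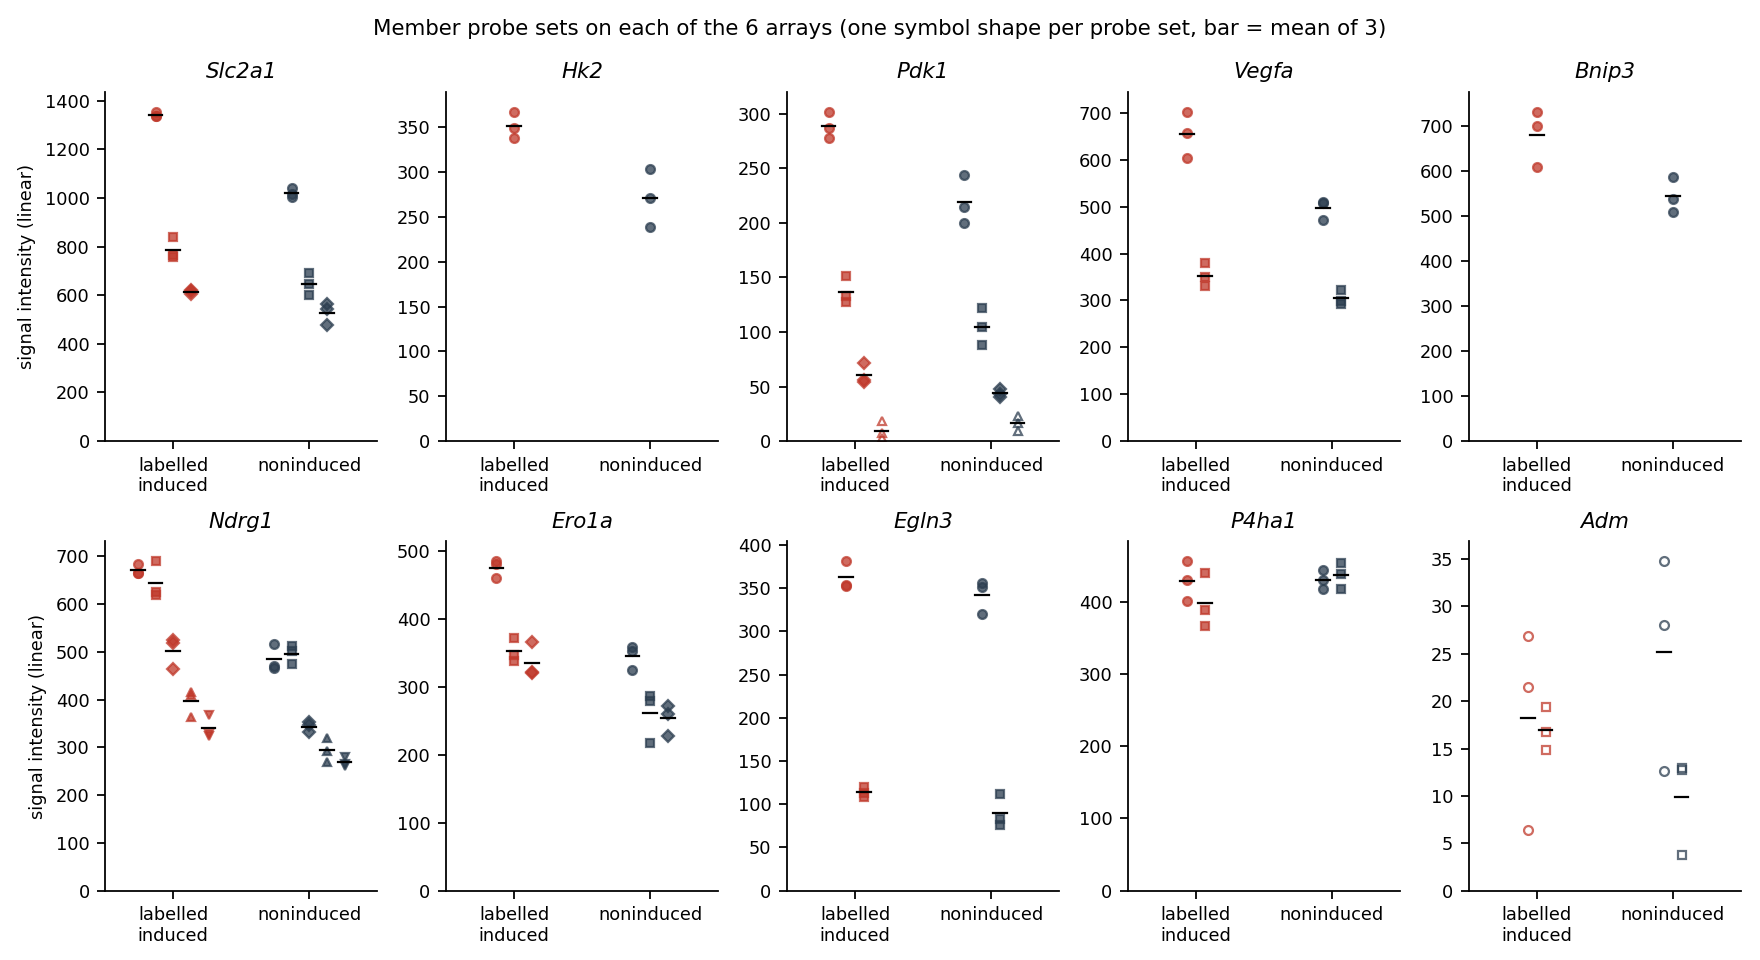
Signal intensity (linear, from 0) of the 25 member probe sets on each of the 6 arrays, with the 3 arrays labelled induced left of the 3 noninduced arrays; symbol shapes separate the probe sets of a gene, bars are means of 3 and open symbols are probe sets too dim to test. The 2 groups of points are apart in every tested probe set of Slc2a1, Hk2, Pdk1, Vegfa, Bnip3, Ndrg1 and Ero1a, and they overlap in those of Egln3 and P4ha1.

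GLUT1 carries glucose across the plasma membrane. The brightest Slc2a1 probe set, 1434773_a_at, gave 1336, 1356 and 1336 on the arrays labelled induced, against 1042, 1006 and 1016 on the noninduced arrays. The replicates lay close together and the lowest array labelled induced was 28.2% above the highest noninduced one. The means were 1343 ± 11.7 and 1021 ± 18.4 (SD, n = 3 each), a log2 fold change of 0.39 (SE 0.049, 95% interval 0.28 to 0.50, limma adjusted p = 0.0151). The exact two-sided permutation p was 0.1 here and for every tested member probe set whose groups did not overlap, which is the smallest p that 3 against 3 arrays allow.

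The other Slc2a1 probe sets pointed the same way with smaller differences. Probe set 1426599_a_at gave 757, 839.7 and 765 on the arrays labelled induced, against 648, 601 and 692 on the noninduced arrays (log2 0.28, SE 0.069, limma adjusted p = 0.118). Probe set 1426600_at gave 621, 604 and 618, against 477, 564 and 545 (log2 0.21, SE 0.071, limma adjusted p = 0.208). Neither passed, the groups were apart in both, and noninduced replicates spread more widely than with the brightest probe set.

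Hk2 encodes a hexokinase that phosphorylates glucose once it is inside the cell. Its single probe set, 1422612_at, gave 368, 338 and 349.6 on the arrays labelled induced, against 271, 304 and 239 on the noninduced arrays. The groups were apart, and the spread was wider on the noninduced side (352 ± 15.0 and 271 ± 32.5, SD, n = 3 each). The log2 difference was 0.36 (SE 0.091, 95% interval 0.17 to 0.56, limma adjusted p = 0.118), and it lay between 0.28 and 0.44 when 1 array was left out.

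Pdk1 encodes a kinase that switches off pyruvate dehydrogenase and so keeps pyruvate from the mitochondrial citrate cycle. Its brightest probe set, 1423747_a_at, gave 302, 287 and 278 on the arrays labelled induced, against 244, 214 and 199.6 on the noninduced arrays. The groups did not overlap (log2 0.38, SE 0.089, limma adjusted p = 0.107). Probe sets 1423748_at and 1435836_at gave 0.35 and 0.35 and were apart as well, with limma adjusted p of 0.239 and 0.317. In 1423748_at the gap was narrow, with 127 as the lowest array labelled induced and 122 as the highest noninduced one. The last probe set, 1434974_at, was below the filter at 3.05 to 18.4 and 9.69 to 22.7, and its groups overlapped.

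Vegfa encodes the growth factor that draws blood vessels into tissue. Probe set 1420909_at gave 703, 603 and 657 on the arrays labelled induced, against 472, 510.4 and 508 on the noninduced arrays. The groups were apart and the log2 difference was 0.38 (SE 0.071, 95% interval 0.23 to 0.54), just short of the threshold at a limma adjusted p of 0.0553. With the filter set at the 75th percentile of signal it passed. The second probe set, 1451959_a_at, gave 330.3, 379 and 349.7, against 322, 293 and 298 (log2 0.20, limma adjusted p = 0.267), groups apart by 2.46%.

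Bnip3 encodes a protein of the outer mitochondrial membrane that marks mitochondria for autophagy. Its single probe set, 1422470_at, gave 699, 608 and 732 on the arrays labelled induced, against 586, 538 and 508 on the noninduced arrays. Induced replicate 2 was only 3.72% above the highest noninduced array. The log2 difference was 0.31 (SE 0.080, 95% interval 0.14 to 0.49, limma adjusted p = 0.123).

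Ndrg1, a cytoplasmic protein that cells raise under hypoxia, metal chelation and differentiation, had the most probe sets, 5, and all 5 had groups that did not overlap. Probe set 1450976_at gave 463, 524 and 519 on the arrays labelled induced, against 347, 352 and 332 on the noninduced arrays. This was the largest difference among the tested member probe sets (log2 0.53, SE 0.072, 95% interval 0.37 to 0.68, limma adjusted p = 0.0151). The brightest, 1456174_x_at, gave 665, 665 and 684, against 517, 466 and 469 (log2 0.46, SE 0.064, limma adjusted p = 0.0151). The remaining 3 gave 0.37, 0.41 and 0.32 and did not pass, with limma adjusted p of 0.0553 for 1420760_s_at, 0.0757 for 1450977_s_at and 0.115 for 1423413_at. Suffixes _s_ and _x_ mark probe sets whose probes can bind related transcripts.

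Ero1a encodes an oxidase of the endoplasmic reticulum that passes oxidising power to protein disulfide isomerase, and stress of that compartment raises it as well as hypoxia. Its brightest probe set, 1449324_at, gave 481, 461 and 485 on the arrays labelled induced, against 325, 353 and 358 on the noninduced arrays. The lowest array labelled induced was 28.7% above the highest noninduced one (log2 0.44, SE 0.069, 95% interval 0.29 to 0.60, limma adjusted p = 0.0235). Probe set 1419030_at gave 339, 371 and 347, against 218, 286 and 279, and 1419029_at gave 322, 319.8 and 365, against 228, 260.1 and 272. Both were apart without passing (log2 0.42 and 0.38, limma adjusted p = 0.108 and 0.10).

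Egln3 and P4ha1, both oxygen-dependent prolyl hydroxylases, showed no such separation. EGLN3 acts on the hypoxia-inducible factors themselves and P4HA1 on collagen chains. Egln3 probe set 1418649_at gave 353, 354 and 381 on the arrays labelled induced, against 351, 355 and 320.4 on the noninduced arrays (log2 0.08, 95% interval -0.08 to 0.24, limma adjusted p = 0.663). The dimmer 1418648_at gave 113, 120.0 and 109, against 112, 83.1 and 76.2 (log2 0.30, 95% interval 0.01 to 0.60, limma adjusted p = 0.325), with noninduced replicate 1 inside the range of the other group. P4ha1 probe set 1426519_at gave 431, 400.4 and 456, against 430.3, 417 and 443 (log2 -0.01, 95% interval -0.16 to 0.15), and it was 0.088, with the opposite sign, after median centring. P4ha1 probe set 1452094_at gave 366, 388 and 440.4, against 439, 454 and 417 (log2 -0.13, 95% interval -0.30 to 0.04, limma adjusted p = 0.472). The upper bounds of 0.15 and 0.04 for P4ha1 lie below the brightest probe sets' estimates for Slc2a1, Ndrg1 and Ero1a; the differences between genes were not tested.

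Adm, which encodes the vasodilator peptide adrenomedullin, was dim in all samples. Probe set 1416077_at gave 16.7, 14.8 and 19.4 on the arrays labelled induced, against 3.81, 12.9 and 12.8 on the noninduced arrays, and 1447839_x_at gave 21.5, 26.9 and 6.38, against 12.6, 34.8 and 28.0. The first had groups apart and the second did not, and both were below the filter on signal, so no test is given.

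**Figure D2:**
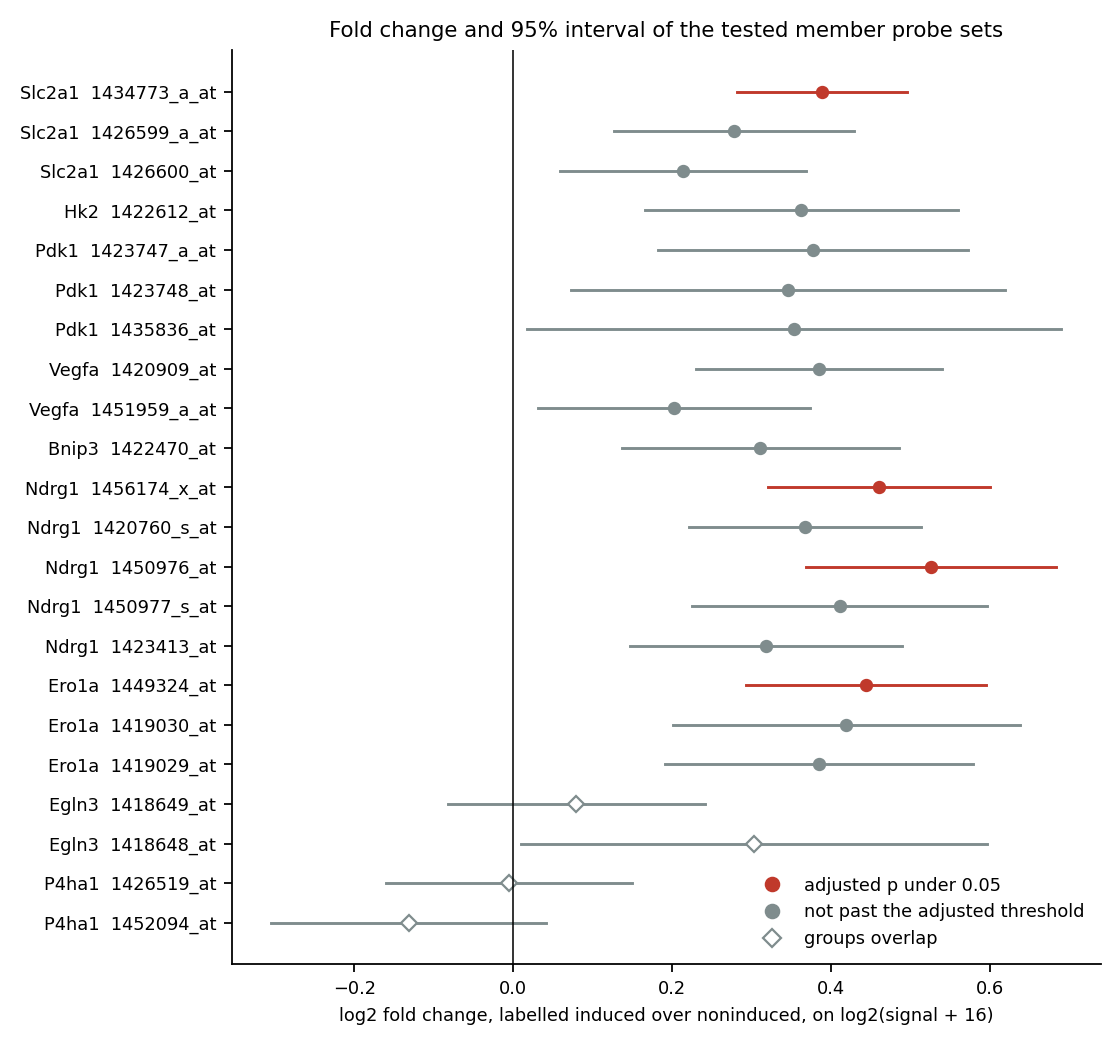
Log2 fold change (arrays labelled induced over noninduced, on log2(signal + 16)) with its 95% interval for the 22 tested member probe sets; red marks an adjusted p under 0.05 and open diamonds mark groups that overlap. The estimates run from -0.13 (P4ha1 1452094_at) to 0.53 (Ndrg1 1450976_at), and 20 of the 22 are positive. The median over all tested probe sets is -0.01.

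The members' median lay higher on each array labelled induced than on each noninduced array. With each gene's brightest probe set centred on its 6-array mean, the median over the 9 tested genes was 0.22, 0.13 and 0.19 on induced replicates 1, 2 and 3 and -0.14, -0.17 and -0.20 on noninduced replicates 1, 2 and 3. Among the arrays labelled induced, replicate 3 was the highest in 5 genes, replicate 1 in 3 and replicate 2 in 1. In the first fluidics run, induced replicate 1 lay above all 3 noninduced arrays in 19 of the 22 probe sets, against 26.9% of all tested probe sets, and the median over genes was 0.42. That run's Slc2a1, Ndrg1 and Ero1a values were 0.38, 0.45 and 0.46 with the brightest probe sets, but they rest on induced replicate 1 as the single array labelled induced, and no call was made there. The second run holds no noninduced array.

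**Figure D3:**
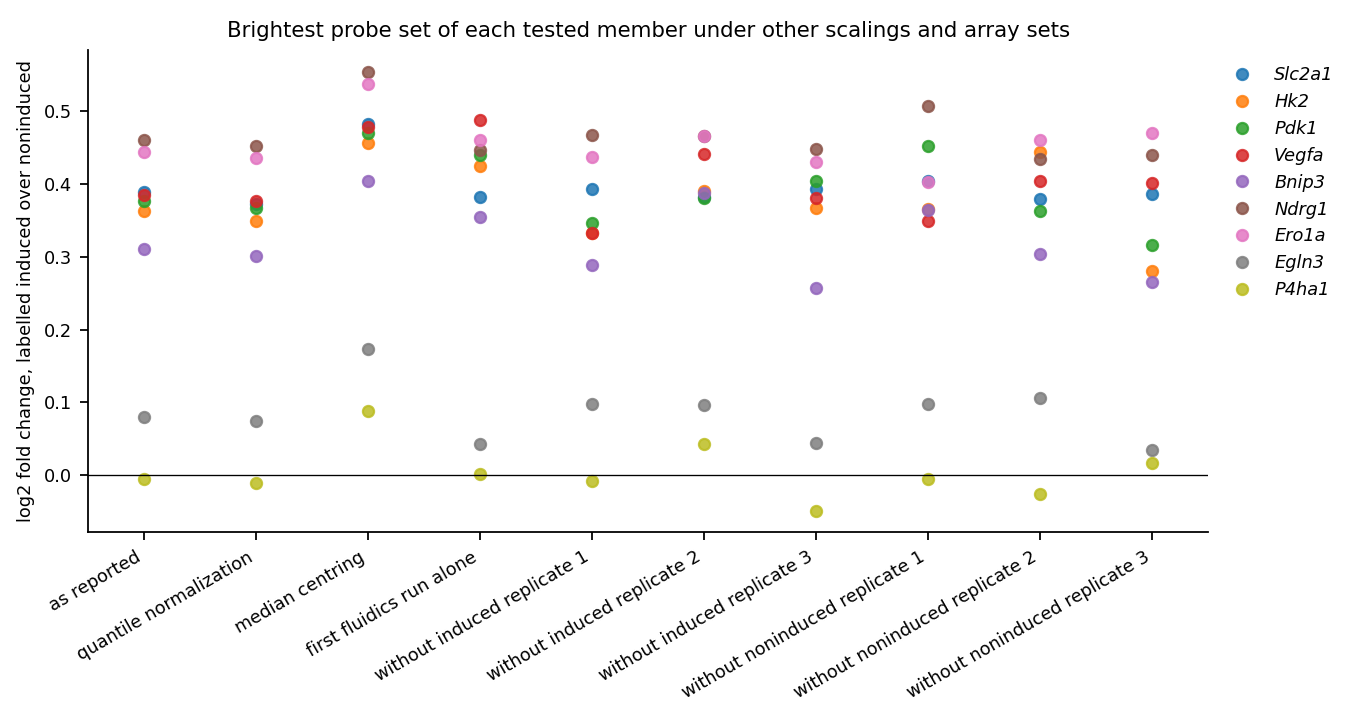
Log2 fold change (labelled induced over noninduced) of the brightest probe set of each of the 9 tested members, as reported and under 2 other scalings, the first fluidics run alone and the omission of each array. Slc2a1, Hk2, Pdk1, Vegfa, Bnip3, Ndrg1 and Ero1a stay above 0.25 in every column shown, while P4ha1 lies on both sides of 0.

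Other genes of the pathway had differences centred near 0. Of 36 other known targets of hypoxia-inducible factors on the array, 31 were tested with 1 probe set per gene, and 0 were called higher and 2 lower, against 0.195% of all 10775 genes called higher and 0.111% called lower. Their median log2 difference was 0.01, with 17 positive and 14 negative. The 2 that fell were Angptl4, a secreted inhibitor of lipoprotein lipase, and Tfrc, the transferrin receptor. Angptl4 had 142, 147 and 127 on the arrays labelled induced, against 213, 224 and 263 on the noninduced arrays (log2 -0.69, SE 0.103, limma adjusted p = 0.0219). Tfrc had 1129, 1281 and 1069, against 1473, 1607 and 1756 (log2 -0.47, SE 0.077, limma adjusted p = 0.0315). The dimmer Tfrc probe sets were at -0.29 and -0.47 with groups overlapping, without passing (limma adjusted p = 0.349 and 0.203). Groups were apart for both Angptl4 and Tfrc with their brightest probe sets. Neither was called without induced replicate 1, induced replicate 3, noninduced replicate 2 or noninduced replicate 3 (0 calls each), and Tfrc alone was called without induced replicate 2. The brightest targets were Mif, a cytokine, at -0.04 and Cited2, a feedback inhibitor of the factors, at 0.10. Of the tested targets, 4 had all arrays labelled induced above all noninduced ones without passing: Mxi1 (0.14), Ddit4 (0.30), Insig2 (0.22) and Bhlhe40 (0.39), named after their values were seen. That is 4 of 31, beside 9.65% of all tested probe sets, and 6 of 31 were below, beside 10.6%. These counts use 1 probe set per gene. The dimmer Mxi1 probe set was at -0.08, and the dimmer Insig2 probe sets were at 0.07 and 0.20. In each of these dimmer probe sets the groups overlapped.

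The oxygen-sensing machinery had a median of -0.06 over 15 tested genes. Of these 0 passed in either direction (limma), against 0.195% and 0.111% of all genes, so a count of 0 is near the background. At an unadjusted p under 0.05, 1 was higher and 1 lower, against 7.43% and 7.26% of all tested probe sets. The groups were apart in 1 higher and 4 lower genes of the 15, against 9.65% and 10.6%. Hif1a, the main alpha subunit of myoblasts, had 2032, 1933 and 1931 on the arrays labelled induced, against 1873, 1946 and 1818 on the noninduced arrays (log2 0.06, limma adjusted p = 0.576), and is named here after its value was seen. This is its transcript, and the protein, on which oxygen acts, was not measured. Rbx1, the RING subunit of the VHL ligase, was at -0.35 and Arnt2, an alternative partner subunit, at -0.32, neither past the test. Elob, an adaptor of the same ligase, was at 0.04. The single gene higher at an unadjusted p under 0.05 was the coactivator Ep300 (0.31, limma adjusted p = 0.0957), also named after its value was seen. Ep300 was the 1 gene of the list called after median centring. The single gene lower was Hif1an (-0.26, limma adjusted p = 0.309), likewise named after its value was seen. Its dimmer tested probe set was at -0.04 with groups overlapping. The 4 genes apart and lower were Rbx1, Hif1an, Egln2 (-0.12) and Cul2 (-0.06).

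Glycolytic enzymes, which lie downstream of the glucose transporter and hexokinase, had a median of 0.00 over 9 tested genes. With the brightest probe sets 0 of 9 passed and 0 had an unadjusted p under 0.05 (limma); so few genes are called overall (0.195% higher, 0.111% lower) that a count of 0 is near the background. The groups were apart, higher on the arrays labelled induced, in Pfkm and in Aldoa, the aldolase gene, at 0.06. That is 2 of 9, beside 9.65% of all tested probe sets, and 0 of 9 were apart and lower, beside 10.6%. Of the 4 dimmer Aldoa probe sets, 3 were also apart and higher, at 0.11, 0.14 and 0.20, without passing. Pgk1 was at 0.00 and Ldha at -0.02 (0.07 after median centring), and the phosphofructokinases Pfkm and Pfkl were at 0.14 and 0.12. The dimmest Pfkl probe set was apart in the opposite direction without passing, at -0.55 (limma adjusted p = 0.304). Its mean signals were 20.4 on the arrays labelled induced and 38.5 on the noninduced ones. All other dimmer probe sets of these enzymes had groups that overlapped.

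**Figure D4:**
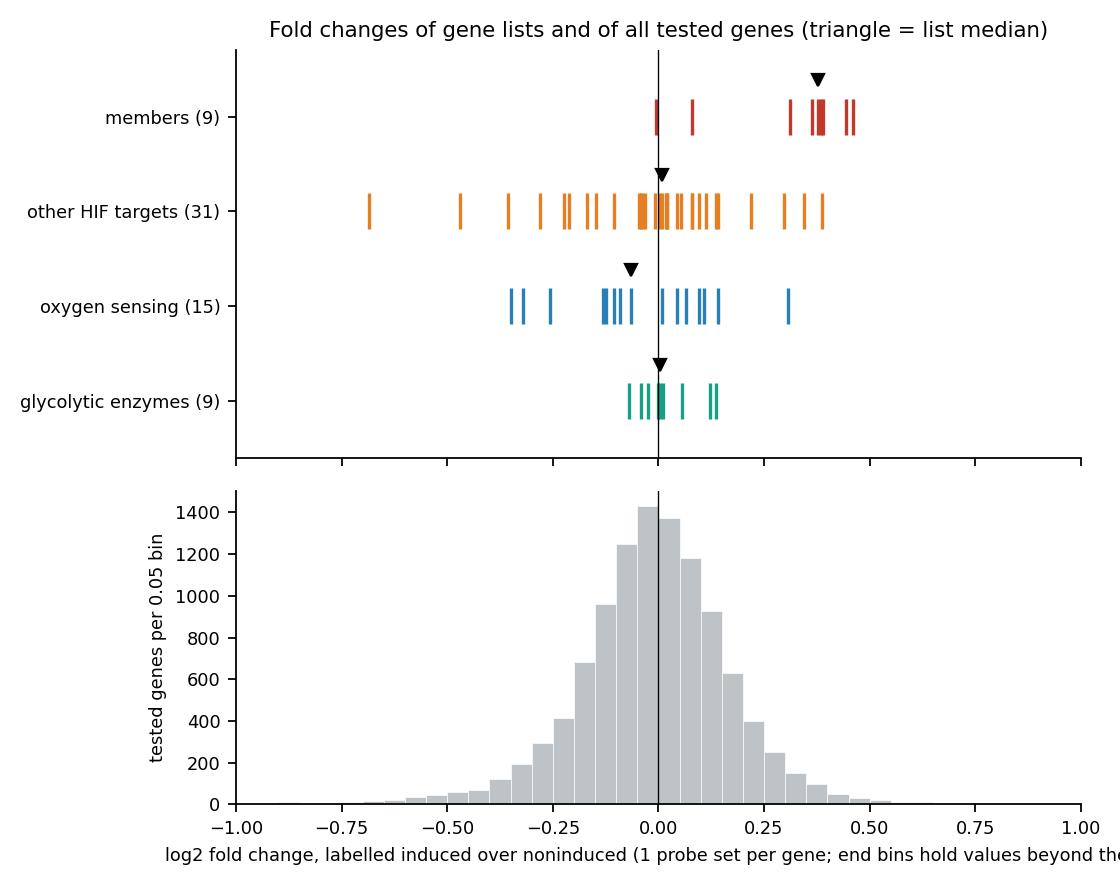
Log2 fold change (labelled induced over noninduced, 1 probe set per gene) of the members, other HIF targets, oxygen-sensing genes and glycolytic enzymes as ticks, above the histogram of all 10775 tested genes. The members' median is 0.38, against 0.01, -0.06 and 0.00 for the other lists. Of the 9 member ticks 7 lie above 0.25, against 7.04% of all tested probe sets.

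Relatives and partners of the members were tested to see how far each gene's family shared its difference. Their median was -0.01 over 38 tested genes. Of these 0 passed in either direction (limma), against 0.195% and 0.111% of all genes, which is again near the background. At an unadjusted p under 0.05, 4 were higher and 5 lower, against 7.43% and 7.26% of all tested probe sets. The groups were apart in 4 higher and 9 lower genes, against 9.65% and 10.6%. Among glucose transporters, the intracellular Slc2a8 had 154, 162 and 195 on the arrays labelled induced, against 142, 106 and 117 on the noninduced arrays (log2 0.44, limma adjusted p = 0.149), groups apart. The insulin-responsive Slc2a4 (GLUT4) was at -0.14 with signals of 24.7 and 28.2, and the remaining 7 transporters, Slc2a3 among them, were below the filter. Hk1, the widely expressed hexokinase, was at 0.13 (limma adjusted p = 0.428). Its dimmer probe set was at 0.22 with groups apart and did not pass (limma adjusted p = 0.241).

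Of the pyruvate dehydrogenase kinases beside Pdk1, none passed. Pdk3 was at -0.04 with groups overlapping (limma adjusted p = 0.882), and Pdk2 was below the filter. Pdk4, the starvation-induced kinase, had 1107, 1085 and 998 on the arrays labelled induced, against 1313, 1222 and 1345 on the noninduced arrays (log2 -0.28, limma adjusted p = 0.0834). Its groups were apart in the direction opposite to Pdk1, and the difference between the 2 kinases was not tested. The E2 subunit gene Dlat was at 0.19, and the E1 subunit genes Pdha1 and Pdhb at 0.05 and 0.00 with their brightest probe sets. Their dimmer probe sets differed from these without passing, with groups apart: Pdha1 was at 0.25 (limma adjusted p = 0.0929) and Pdhb at -0.46 (limma adjusted p = 0.258). In the Vegfa family the receptor Flt1 was at -0.67 with signals of only 16.1 and 33.7, and the ligand Vegfd at -0.37. The coreceptors Nrp1 and Nrp2 were at -0.11 and 0.25, and none of these genes passed. Dimmer tested Nrp2 probe sets were at -0.20 and 0.21 with groups overlapping. Those of Nrp1 were at -0.27 and -0.28 with groups apart and at -0.20 with groups overlapping, without passing. The ligand Vegfc, named after its value was seen, was at 0.34 with groups apart (limma adjusted p = 0.282). Its dimmer probe sets were at 0.02 and 0.15 with groups overlapping, and the ligands Vegfb and Pgf were at 0.06 and 0.04.

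Bnip2, named like Bnip3 for binding a viral protein, was at -0.06, and the mitophagy receptor gene Fundc1 at -0.13. Ndrg2, Ndrg3 and Ndrg4 were at 0.18, -0.05 and 0.15. The dimmer Ndrg4 probe set was at 0.26 with groups apart (limma adjusted p = 0.258). The dimmer one of Ndrg3 was at 0.10 with groups overlapping. Of the Ero1a partners, the second oxidase Ero1b was at 0.06, protein disulfide isomerase P4hb at -0.16 and peroxiredoxin Prdx4 at -0.03. Dimmer tested probe sets were at 0.11 and 0.39 for Ero1b and at 0.34 and -0.07 for Prdx4. These had groups that overlapped, and none passed. The prolyl hydroxylases Egln1 and Egln2 were at 0.14 and -0.12. The dimmer Egln1 probe set was at 0.31 with groups overlapping (limma adjusted p = 0.330). Of 6 tested genes listed beside P4ha1, collagen hydroxylases and again P4hb, 5 had negative differences. The groups were apart and lower in 3, against 10.6% of all tested probe sets, and apart and higher in 0, against 9.65%. Plod3 had 391, 382 and 498 on the arrays labelled induced, against 609, 577 and 584 on the noninduced arrays (log2 -0.47, limma adjusted p = 0.0639), and P4ha3 was at 0.25. For Adm, the related peptide Adm2 was at 0.29, the receptor Calcrl at 0.04 and its partner Ramp2 at -0.43.

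**Figure D5:**
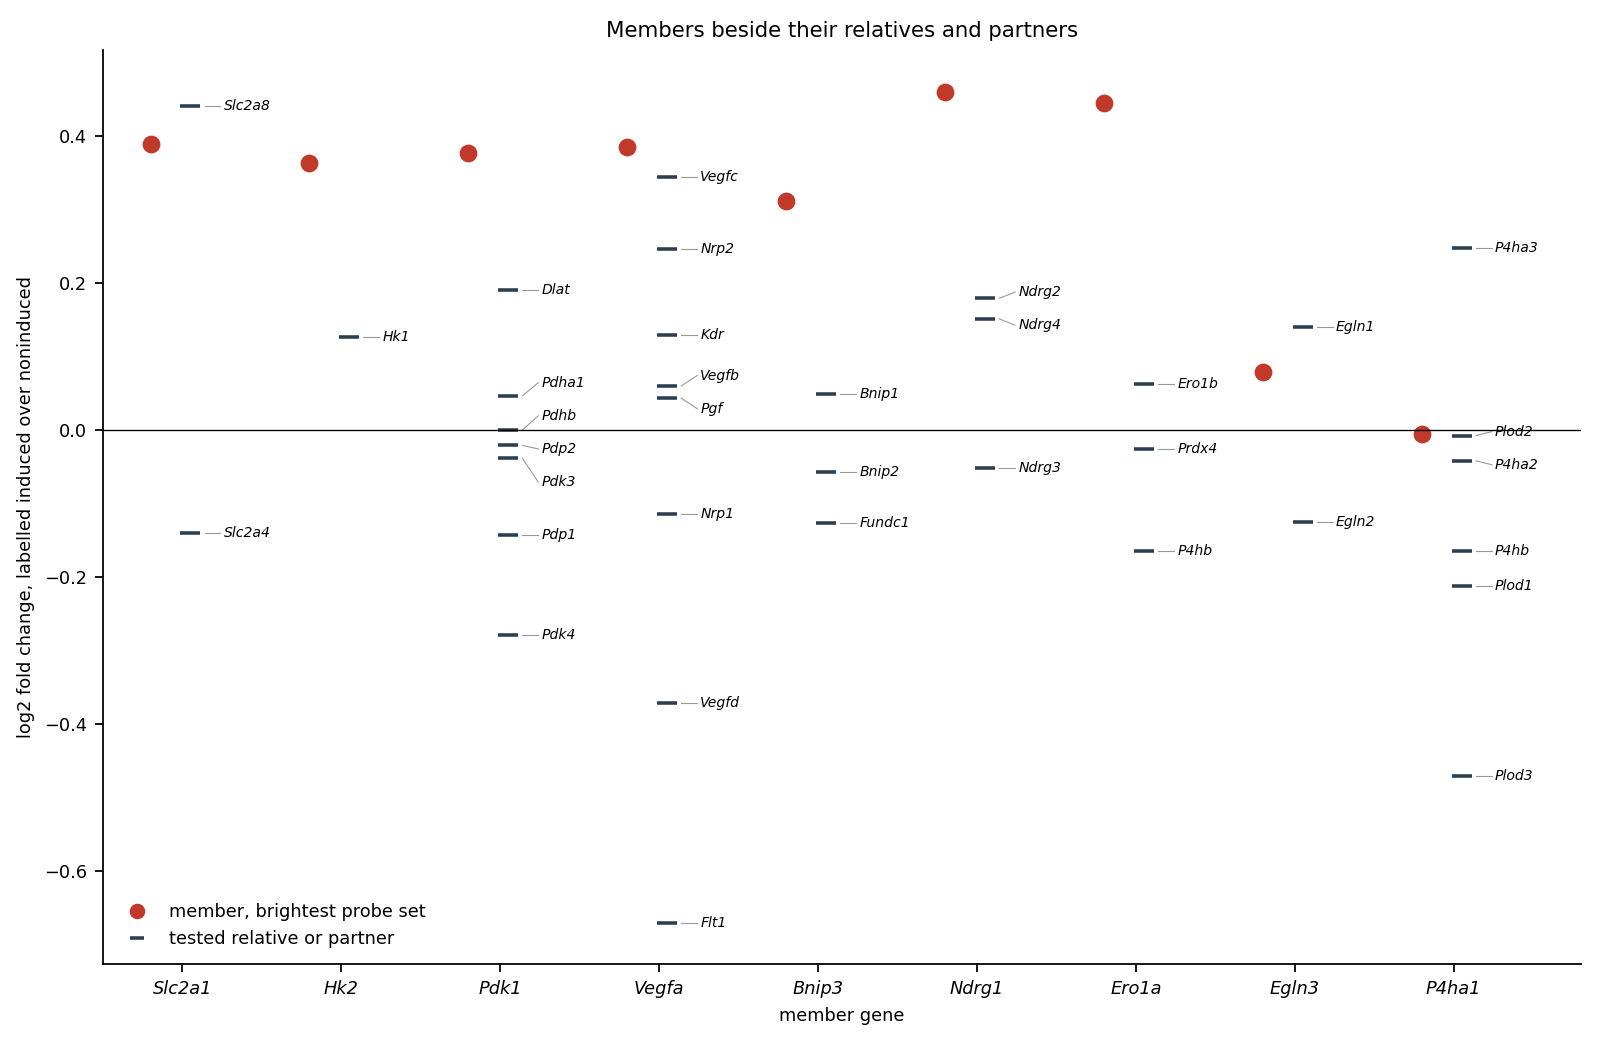
Log2 fold change (labelled induced over noninduced) of the brightest probe set of each tested member (red points) beside its tested relatives and partners (bars, 1 probe set per gene). The relatives scatter around 0 with a median of -0.01; Slc2a8 stands at 0.44 beside 0.39 for Slc2a1, and Pdk4 at -0.28 beside 0.38 for Pdk1.

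Of 8 genes tied to the stress factor ATF4, 4 rose with their brightest probe sets. Ddit3, the stress factor CHOP, had 387, 360.0 and 398 on the arrays labelled induced, against 233, 268 and 256 on the noninduced arrays (log2 0.57, limma adjusted p = 0.0151). Chac1 rose by 0.62, Pck2 by 0.47 and Nupr1 by 0.43, and Trib3 was at 0.70 with its brightest probe set, which did not pass, and at 1.058 with another, which did (limma adjusted p = 0.00531). The share of all genes called higher was 0.195%; Atf4 itself was at 0.09, Asns at 0.14 and Sesn2 at 0.15 with their brightest probe sets, none of which passed. With the brightest probe sets, no stress gene was called without induced replicate 1, induced replicate 2 or noninduced replicate 2 (0 each). Only Chac1 was called without noninduced replicate 3, and Chac1 and Ddit3 were called without noninduced replicate 1. The other Trib3 probe set is not part of these counts. The part of this response in the members' values was not tested.

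The genes whose pattern over the 6 arrays was most like that of Slc2a1 were Ttc14, Adam9, Dbf4, Kctd15 and Lyst, by the root mean square difference between log2 values centred on each gene's own mean. That difference was 0.031 for Ttc14, 0.033 for Adam9, 0.035 for Dbf4, 0.036 for Kctd15 and 0.042 for Lyst. Adam9, a membrane metalloprotease, had 1243, 1260.2 and 1269 on the arrays labelled induced, against 1025, 949 and 999 on the noninduced arrays. Among the members the nearest was Ndrg1, at 0.051 and rank 13 of 10774 genes, followed by Ero1a at rank 49 and Pdk1 at rank 71. P4ha1 was at rank 4058. With 6 arrays in 2 groups, such likeness mostly reads the size of the group difference and the evenness of the replicates.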

How the data were processed

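Biotin-labelled RNA from each of 6 samples went onto its own Affymetrix Mouse 430 2.0 array. Per the submitters' processing notes, the authors used GCOS 1.1.1 to make the deposited intensity values, 1 linear signal per probe set and array; its algorithm is not given in the sources used here. The trimmed mean (2% at each end) was 150.0 on every array, as read from the values. The deposited instrument records (unit other) hold no expression values and served, per the file headers, to find the scan order. The fluidics run was inferred from their module numbers and hybridization dates, with a module used again counted as the next run.

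Of 45101 probe sets, 64 controls were set aside; 34945 of the rest had 1 gene in the platform annotation, 932 several and 9160 were not listed. Values were taken to log2(value + 16), which understates changes of dim probe sets. The 22518 probe sets with a mean signal above the median were fitted in R 4.3.3 by lmFit and eBayes (trend on) of limma 3.58.1, with p-values adjusted by Benjamini-Hochberg over all of them at a threshold of 0.05. A gene is given with its probe set of highest mean unless another is stated. Precision is limited by the number of arrays. The series calls the samples of a condition biological triplicates, so p-values measure the spread between them.

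The members and all gene lists were chosen with earlier results of these data known. Named are all members with every probe set; from each list, genes past the threshold, the 2 largest differences and the 2 highest signals, from which examples are given; and the 5 genes most like Slc2a1. Alternatives were quantile normalization, median centring, other filters and pseudocounts, no variance trend, the replicate number or fluidics run as a block, the first run alone, leaving out each array, and averaging the probe sets of each gene. The replicate numbers did not pair the samples.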

Additional observations from a re-analysis of the deposited data

How the results depend on the processing

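Of the 4 member probe sets called, none was called in the first fluidics run alone, with the run as a block, with no filter, with no variance trend or with the replicate block (0 each); 13 were called after median centring, and leaving out 1 array gave 0 to 3. The causes were not tested, beyond fewer arrays or a single array labelled induced in some fits. The replicate numbers did not pair the samples: same-numbered arrays' deviations correlated at 0.01, -0.06 and -0.01. The groups were apart in 18 of 22 member probe sets after quantile normalization, 20 of 22 after median centring and 16 of 19 with the filter at the 75th percentile. The members' median log2 difference, 0.38, was 0.42 in the first run alone and with the run as a block, 0.47 after median centring, 0.32 with a pseudocount of 64, 0.31 with probe sets averaged per gene, and 0.32 to 0.39 when 1 array was left out. P4ha1 probe set 1426519_at was at -0.01 as reported, at 0.0022 in the first run and with the run as a block, at 0.088 after median centring and between -0.049 and 0.042 when 1 array was left out; no other tested member probe set changed sign.

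Among the other targets, where Angptl4 and Tfrc were called lower, 0 were called in the first run alone, with the run as a block, with no filter, with no variance trend or with the replicate block, and 0 to 2 of that pair when 1 array was left out. Among oxygen-sensing genes 1, Ep300, was called after median centring. Among relatives 1, Plod3, was called with the filter at the 75th percentile, and 0 to 1 when 1 array was left out. Among the 8 stress genes, each with its brightest probe set, 4 were called as reported. With the run as a block, with no filter or with no variance trend 0 were called, and 1 (Chac1) with the replicate block. When 1 array was left out 0 to 4 were called, and the 4 without induced replicate 3 were Trib3 and 3 of those reported. Dim signal kept Adm from being tested.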
